A study of Komagataella phaffii CBS 7435 with 16 samples.

Results

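The coding features nearest the ends of the 4 nuclear chromosomes of the methylotrophic yeast Komagataella phaffii CBS7435 were followed through a fall in oxygen supply. For each chromosome the members are the first 20 and the last 20 features whose identifier carries the suffix t, the coding ones, in the row order of the deposited tables, with 1 feature of chromosome 1 left out. This gives 159 members at 8 ends, out of 5362 coding features on the 4 chromosomes and 5564 features in all. The first rows of a chromosome are called its left end and the last rows its right end, and place 1 is the outermost feature. The rule uses the row order and no measured value.

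RNA-seq was done on wild-type cells from glucose-limited chemostats, which hold a culture in steady growth by constant dilution. The labels name 4 groups of 4 biological replicates. One stands for 30% oxygen after 5 volume changes, and the others for 0% oxygen after 0.4, 4 or 5 volume changes. In the protocol these correspond to 66 h on 21% oxygen in the inlet gas, and to 5, 50 or 70 h on 8% oxygen afterwards. All groups share the strain, the wild-type genotype and the medium, and the groups at 0% oxygen are called below by their volume changes alone.

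Chromosome ends carry telomeres, short repeats bound by proteins that protect the DNA from erosion and from being treated as a break. In the baker's yeast Saccharomyces cerevisiae, genes close to a telomere can be kept silent by Sir proteins that spread inward from it. The same region, the subtelomere, exchanges sequence between chromosomes in that yeast, so that gene families such as the flocculins and many sugar transporters lie there in near-identical copies. Silenced genes and repeated copies are therefore both known features of chromosome ends in yeasts. The tables used here pair no identifier with a gene name, and 0 member identifiers matched the reference gene table, so members are given by identifier and no role is assigned to any of them.

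The tables list features without coordinates, so the row order was compared with RefSeq's gene order for assembly ASM2700v1. Reading each end inward, the coding lengths that recurred in the same order among the 30 outermost genes of the same-numbered reference chromosome numbered 15 of 20 for the left end of chromosome 1, and 16 and 12 for the left and right ends of chromosome 2. They numbered 15 and 9 for chromosome 3 and 10 and 7 for chromosome 4. The next best reference end gave at most 2, and inner stretches of the reference gave at most 4. At the right end of chromosome 1 only 1 length recurred in order, so that end rests on the row order alone.

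Library totals ran from 23085262 to 40699763 estimated counts, the numbers of reads assigned to a feature by the authors. Members together took 1.46% to 1.72% of these counts. A level is given as TPM, which is scaled by length and total, when features are set against each other. CPM (counts relative to the library total, after TMM scaling) is used when 1 feature is followed across libraries, and errors are SD over n = 4 libraries unless marked SE. In 1 library, replicate 4 at 5 volume changes, non-coding r features took 0.854% of counts, against 0.014% to 0.0381% in the others.

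The median member was less abundant than the median coding feature, and the lowest levels of all were among the members. The median member level was 37.2 ± 2.21 TPM at 30% oxygen, against 49.9 ± 1.496 TPM over all coding features. At 0.4, 4 and 5 volume changes the member medians were 34.3 ± 1.98, 39.3 ± 2.81 and 35.4 ± 1.97 TPM, against 43.8 ± 2.16, 47.5 ± 4.92 and 45.7 ± 2.70 TPM. Below a mean of 1 TPM lay 11 of 159 members (6.92%) but 1 of the 5202 coding features outside the ends (0.0192%). Of the members, 34 (21.4%) exceeded 100 TPM, against 25.5% outside the ends. Members were also shorter, with a median coding length of 1068 nt against 1164 nt, and 18 (11.3%) were under 300 nt against 4.68% of all coding features.

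The 8 ends differed in level. The median member of the right end of chromosome 1 stood at 0.33 ± 0.0399 of the median of all coding features, averaged over the 16 libraries with the SD within groups. The right end of chromosome 3 stood at 0.563 ± 0.0551, the left end of chromosome 1 at 0.604 ± 0.061 and the left end of chromosome 2 at 0.717 ± 0.0549. The right end of chromosome 4 stood at 0.979 ± 0.107. The remaining ends stood above the general median, with 1.29 ± 0.189 for the right end of chromosome 2, 1.29 ± 0.0633 for the left end of chromosome 4 and 1.57 ± 0.105 for the left end of chromosome 3. The ratio depended on how many features make an end: with 10 or 40 in place of 20 it was 1.71 or 0.731 at the right end of chromosome 4 and 0.0130 or 0.552 at the right end of chromosome 1. No test was made over members, and in whole-culture RNA fewer expressing cells cannot be told apart from less RNA per cell.

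**Figure D1:**
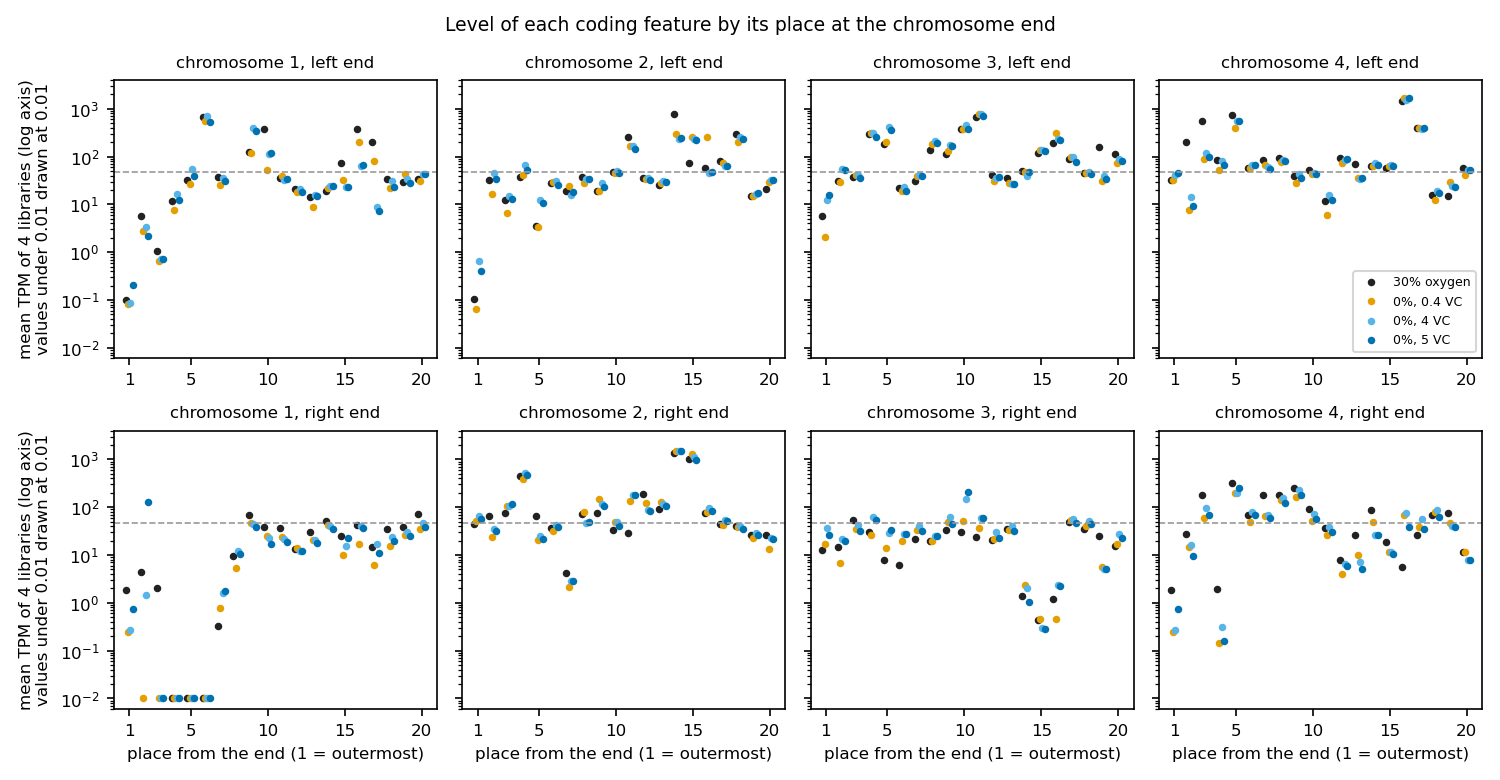
Mean TPM of 4 libraries (log axis) of each member against its place from the chromosome end, 1 panel per end and 1 colour per group; the dashed line is the median of all coding features, values under 0.01 are drawn at 0.01, and the high point at place 2 of chromosome 1 right comes from 1 library. The outermost places of chromosomes 1 and 2 left and of chromosome 1 right lie far under the line, as does the outermost place of chromosome 4 right, while the outermost features of chromosome 2 right and chromosome 4 left lie close to it.

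Most of the lowest levels sat at the outermost places of the row order, though not at every end. Of the 11 members under 1 TPM, 9 lay at places 1 to 5, 1 at places 6 to 10 and 1 at places 11 to 15. The right end of chromosome 1, whose row order could not be matched to the reference, held 5 of the 11. The right end of chromosome 2 and the left ends of chromosomes 3 and 4 held 0. The median of mean levels was 33.3 TPM at places 1 to 5, 46.5 at places 6 to 10, 35.9 at places 11 to 15 and 44.0 at places 16 to 20, against 51.0 TPM over the next 160 coding features inward, at places 21 to 40. The order was therefore not a steady rise with distance.

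The outermost 6 members of the right end of chromosome 1 were nearly without reads. PP7435_Chr1-1622.t01 (408 nt) and PP7435_Chr1-1621.t01 (252 nt), at places 5 and 6, held no count in any of the 16 libraries, where a count of 0 allows up to 3 counts per library. They are the only coding features of the 4 chromosomes with no count anywhere. PP7435_Chr1-1623.t01 at place 4 (216 nt) held less than 1 count over all libraries. PP7435_Chr1-1590.t01 at place 3 (330 nt) held 79 counts in replicate 1 at 30% oxygen and 0 in the other libraries. PP7435_Chr1-1591.t01 at place 2 (222 nt) held 1643 counts in replicate 4 at 5 volume changes, 76 in replicate 1 at 30% oxygen, 14 in replicate 2 at 4 volume changes and 0 in the other 13 libraries. The library with 1643 counts is the one with the raised share of r features, and the part of that library in this value was not tested. These members did not pass the low-count filter, and no comparison was made on them.

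The outermost right-end features of chromosomes 1 and 4 could not be separated. PP7435_Chr1-1624.t01 and PP7435_Chr4-1026.t01 are both 330 nt long and carried the same estimated count in every library. Rounded to whole counts, each held 38, 0, 25 and 0 counts at 30% oxygen in the order of replicates 1 to 4, then 3, 0, 2 and 2 at 0.4 volume changes. At 4 volume changes they held 0, 0, 0 and 6 counts, and at 5 volume changes 0, 15, 0 and 0. Most libraries hold a rounded count of 0 and the groups overlap, and neither feature passed the filter. With the 6 members of chromosome 1 this leaves 152 of 159 members tested.

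Reads were shared between ends. An estimated count that is not whole, by more than 1e-06, shows that reads were divided between features, and 25 members (15.7%) had such a count in at least 1 library, against 62 of the 5202 coding features outside the ends (1.19%). The right end of chromosome 4 held 8 of them, the right end of chromosome 1 held 5, and the right end of chromosome 3 and the left end of chromosome 4 held 4 each. The left ends of chromosomes 1 and 2 held 3 and 1, and the right end of chromosome 2 and the left end of chromosome 3 held 0. For 19 of the 25, sets were found whose counts add up to whole numbers in every library concerned. The tolerance was the rounding of the deposited values, at most 0.1 count in the sum.

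The largest set joins 3 chromosomes. It holds PP7435_Chr1-1587.t01 (2703 nt, place 7 of chromosome 1 right), PP7435_Chr3-1237.t01 and PP7435_Chr3-1236.t01 (945 and 1131 nt, places 1 and 2 of chromosome 3 right) and PP7435_Chr4-1020.t01 (2040 nt, place 2 of chromosome 4 right). Their sum was whole in 16 of 16 libraries although each member alone was not. The summed CPM in the order of replicates 1 to 4 was 91.03, 112, 119.5 and 135 at 30% oxygen, 75.9, 77.5, 82.1 and 93.4 at 0.4 volume changes, 121, 183, 96.5 and 117 at 4 and 97.05, 93.4, 70.8 and 132 at 5 volume changes. These sums overlap between 30% oxygen and each of the other groups. The members divided the sum differently between groups: PP7435_Chr4-1020.t01 went from 78.1 ± 13.1 to 29.1 ± 5.27 CPM between 30% oxygen and 5 volume changes, while PP7435_Chr3-1237.t01 went from 14.4 ± 4.28 to 31.4 ± 9.02 CPM and PP7435_Chr1-1587.t01 from 1.32 ± 0.366 to 7.45 ± 2.20 CPM. The values of single members depend on how the authors' quantification split common reads, and are uncertain for that reason.

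**Figure D2:**
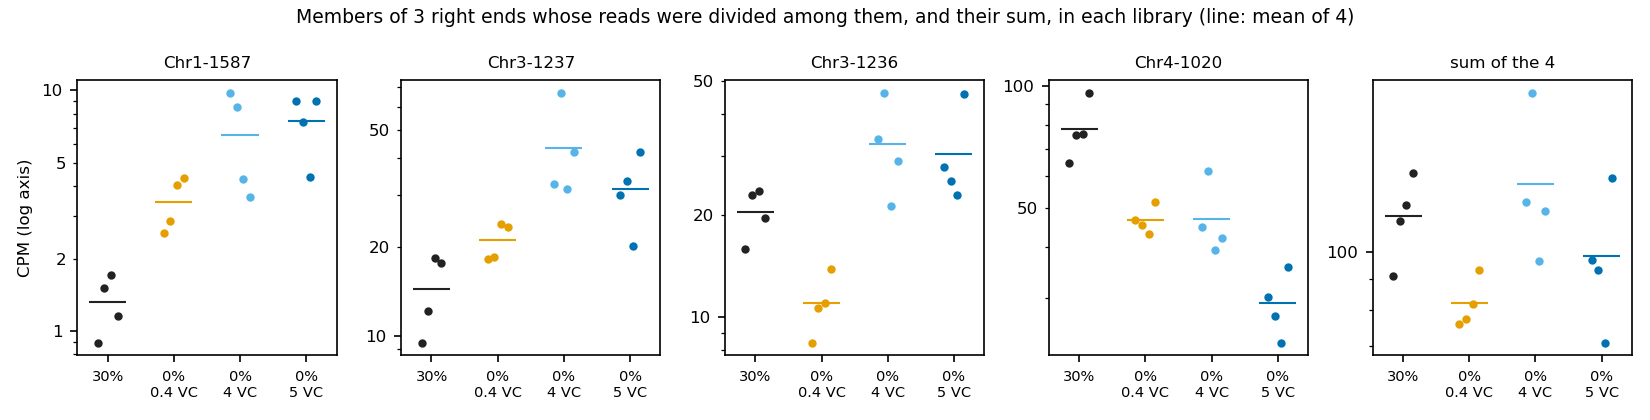
CPM (log axis) of the 4 members of the set that spans the right ends of chromosomes 1, 3 and 4, and of their sum, in each library of the 4 groups; points are libraries in the order of replicates and lines are means of 4. The points of PP7435_Chr4-1020.t01 are lowest at 5 volume changes (mean 29.1 ± 5.27 CPM), the means of PP7435_Chr1-1587.t01 and PP7435_Chr3-1237.t01 are lowest at 30% oxygen, and the sums overlap between 30% oxygen and every other group.

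Other sets were smaller. PP7435_Chr3-1234.t01 at place 4 of chromosome 3 right and PP7435_Chr4-1017.t01 at place 6 of chromosome 4 right are both 1065 nt long, and their sum was whole in all 16 libraries. Summed, they stood at 129 ± 15.7 CPM at 30% oxygen, 109.9 ± 5.65 at 0.4, 194 ± 57.2 at 4 and 168 ± 26.9 at 5 volume changes, and every library at 4 and 5 volume changes lay above all 4 at 30% oxygen. PP7435_Chr3-1235.t01, PP7435_Chr4-1018.t01 and PP7435_Chr4-1012.t01 (places 3, 4 and 12 of the same 2 ends) formed another set, with sums of 138 ± 8.20, 95.3 ± 1.92, 108 ± 16.7 and 87.8 ± 2.29 CPM in the same order of groups. Every library at 0.4, 4 and 5 volume changes lay under all 4 at 30% oxygen in that set. At the left end of chromosome 1, PP7435_Chr1-1593.t01 and PP7435_Chr1-0005.t01 are both 240 nt long and shared reads in 13 libraries.

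The outermost block of the left end of chromosome 4 has a copy within the same chromosome. PP7435_Chr4-0001.t01 (918 nt), PP7435_Chr4-0004.t01 (330 nt) and PP7435_Chr4-0005.t01 (537 nt) carried the same estimated counts in all 16 libraries as PP7435_Chr4-0074.t01, PP7435_Chr4-0071.t01 and PP7435_Chr4-0070.t01, which have the same lengths and run in the opposite order of identifiers. PP7435_Chr4-0003.t01 (3138 nt) and PP7435_Chr4-0072.t01 (3135 nt) shared reads but differed in value. Between these lie PP7435_Chr4-0002.t01 (678 nt) and PP7435_Chr4-0073.t01 (573 nt), which differ in length and both had whole counts throughout. Values of the 3 members with the same counts as their copies are therefore those of 2 places on the chromosome.

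Most tested members differed between groups. When edgeR's quasi-likelihood fit tested all groups together, 109 of 152 members were called at an adjusted p under 0.05 (Benjamini-Hochberg over all 5452 features tested), which is 71.7% against 62.9% of all features. By end, 16 of 20 members of chromosome 3 right, 16 of 19 tested of chromosome 4 right and 12 of 14 tested of chromosome 1 right were called. The lowest counts were 11 of 20 at the left end of chromosome 4 and 11 of 19 at the left end of chromosome 1. By distance, 79.4% of tested members were called at places 1 to 5, 71.1% at places 6 to 10, 62.5% at places 11 to 15 and 75.0% at places 16 to 20, against 59.4% at places 21 to 40. In none of the 6 pairwise comparisons were 29 members called (19.1%, against 28.1% of all features).

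Against 30% oxygen, the ends moved in different directions. At 0.4 volume changes 89 of 152 members were called (58.6%, against 47.8% of all features tested), 33 higher and 56 lower. The background shares were 23.8% called higher and 24.0% called lower. At the second time, 4 volume changes, 87 were called (57.2%, against 50.0%), 47 higher and 40 lower, with 24.6% and 25.4% in the background. At 5 volume changes 84 were called (55.3%, against 45.9%), 41 higher and 43 lower, with 23.3% and 22.5%. These 3 comparisons share the 4 libraries at 30% oxygen. Median log2 fold changes over the tested members were -0.05, 0.08 and -0.03, against 0.01, -0.002 and 0.02 over all features.

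With limma on log2(TPM + 1), which changes both the scale and the test, the whole table moved, by a median of -0.13 on the log2 scale at 0.4 volume changes against 30% oxygen and 0.12 at 4 against 0.4 volume changes. There, calls at 0.4 volume changes were 17 higher and 62 lower, so that the share of higher calls was 21.5% in place of 37.1%. Over all features the calls there were 747 higher and 1630 lower, in place of 1296 and 1310. In the main edgeR fit, changes of at least 2-fold were called in 8 members higher and 19 lower at 0.4 volume changes, in 16 and 16 at 4 and in 14 and 19 at 5 volume changes. The background shares for these were 4.49% and 6.57%, 3.74% and 6.47%, and 3.36% and 6.2%. In all 3 comparisons of that fit 21 members were higher (13.8% of those tested) and 33 lower (21.7%), against 13.6% and 14.8% of all features.

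**Figure D3:**
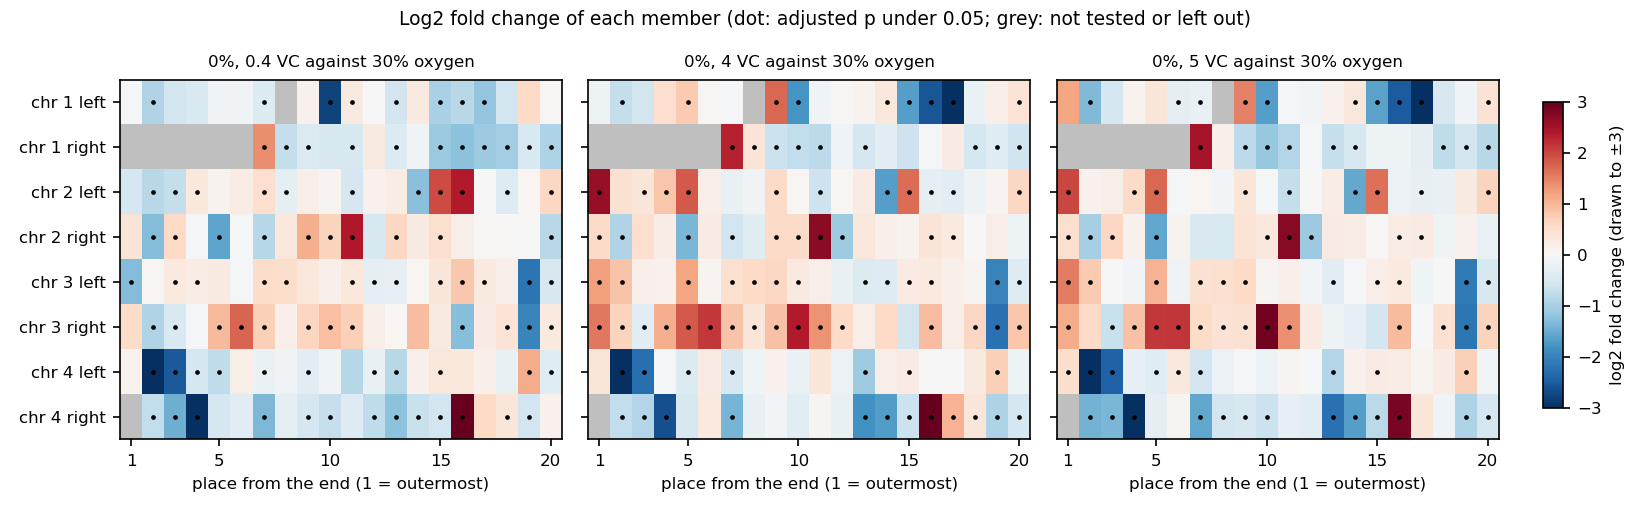
Log2 fold change against 30% oxygen of each member, by end (rows) and place from the end (columns), for 0.4, 4 and 5 volume changes of 0% oxygen; red is higher, blue is lower, dots mark adjusted p under 0.05 and grey cells were not tested or left out. A red run fills places 4 to 12 of chromosome 3 right at 4 volume changes, where 9 neighbouring members were called higher, and blue prevails at chromosome 1 right and chromosome 4 right.

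At the right end of chromosome 3 more members rose than fell. At 4 volume changes 14 of its 20 members were higher than at 30% oxygen and 2 were lower, with a median log2 fold change of 0.75. At 0.4 volume changes 8 were higher and 4 lower (median 0.28), and at 5 volume changes 12 were higher and 2 lower (median 0.50). The 9 neighbours at places 4 to 12 were all called higher at 4 volume changes, and at 5 volume changes the 8 at places 4 to 11. As shares of the end, 40%, 70% and 60% were higher and 20%, 10% and 10% lower, against 23.8%, 24.6% and 23.3% higher and 24.0%, 25.4% and 22.5% lower over all features. Without the 4 members that share reads, 11 of 16 were higher and 1 lower at 4 volume changes (median 0.73). Leaving out any 1 library gave 11 to 14 higher and 2 lower there.

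The member of that run with the largest change at 4 and 5 volume changes was PP7435_Chr3-1228.t01 (2628 nt, place 10). Its CPM in the order of replicates was 79.6, 129, 103 and 139 at 30% oxygen and 204, 219.9, 214 and 209 at 0.4 volume changes. It was 372, 1033, 557 and 389 at 4 and 547, 1282, 742 and 767 at 5 volume changes. No library at 0% oxygen overlaps those at 30% oxygen, and replicate 2 is the highest library of both later groups. The log2 fold change was 2.38 ± 0.30 (SE) at 4 and 2.89 ± 0.31 at 5 volume changes (adjusted p = 3.31e-06 and 4.30e-07, edgeR). At 0.4 volume changes it was 0.91 ± 0.29 (adjusted p = 0.0144), and this call ended without replicate 1 at 30% oxygen, where the value was 0.76.

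Its neighbours, chosen here for their place in the run, rose by less there. At 4 volume changes PP7435_Chr3-1232.t01 (place 6) was 2.12 higher on the log2 scale, PP7435_Chr3-1233.t01 (place 5) 1.83, PP7435_Chr3-1227.t01 (place 11) 1.34 and PP7435_Chr3-1229.t01 (place 9) 0.88. In level, PP7435_Chr3-1232.t01 went from 6.32 ± 0.758 to 27.6 ± 4.14 TPM and PP7435_Chr3-1227.t01 from 24.3 ± 1.79 to 60.8 ± 10.01 TPM. The run ended inward at PP7435_Chr3-1225.t01 (place 13), with 0.21 and adjusted p = 0.282, followed by PP7435_Chr3-1224.t01 and PP7435_Chr3-1223.t01, which were among the least abundant members at 1.38 ± 0.757 and 0.43 ± 0.112 TPM at 30% oxygen.

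The outermost member of chromosome 3 right, PP7435_Chr3-1237.t01, shares its reads with features of chromosomes 1 and 4. As deposited it held 9.49, 12.2, 18.3 and 17.7 CPM at 30% oxygen and 32.7, 66.96, 31.5 and 41.96 CPM at 4 volume changes, and those groups did not overlap. The log2 fold change was 1.59 ± 0.26 (SE, adjusted p = 7.06e-05, edgeR). One member of this end fell in all 3 comparisons by more than 3-fold: PP7435_Chr3-1219.t01 (1509 nt, place 19) went from 46.8, 58.1, 47.4 and 46.5 CPM at 30% oxygen to 11.8, 14.3, 12.96 and 10.99 CPM at 0.4, 9.91, 6.998, 11.5 and 13.6 at 4 and 12.6, 10.7, 9.79 and 10.9 CPM at 5 volume changes. Its log2 fold changes were -1.99 ± 0.16, -2.24 ± 0.17 and -2.17 ± 0.16 (SE, largest adjusted p = 1.16e-08), and the 3 groups at 0% oxygen overlap each other.

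At the right end of chromosome 4 more members fell than rose. Of 19 tested members, 11 were lower and 2 higher at 0.4 volume changes, 9 and 3 at 4, and 12 and 1 at 5 volume changes. The lower members were 57.9%, 47.4% and 63.2% of those tested and the higher 10.5%, 15.8% and 5.26%, against the background shares of 24.0%, 25.4% and 22.5% lower and 23.8%, 24.6% and 23.3% higher. The median log2 fold changes were -0.56, -0.47 and -0.55. Without the members that share reads, 7 of 12 were lower and 2 higher at 0.4 volume changes and 9 lower and 1 higher at 5. Leaving out any 1 library gave 11 to 12 lower and 1 to 2 higher at 5 volume changes.

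Against this direction, PP7435_Chr4-1008.t01 (1521 nt, place 16) rose more than any other member at 0.4 and 4 volume changes. It held 11.3, 10.2, 13.3 and 11.02 CPM at 30% oxygen and 174, 139, 157 and 141 CPM at 0.4 volume changes. It held 99.7, 223, 166 and 139 CPM at 4 and 54.7, 112, 84.1 and 77.2 CPM at 5 volume changes. All 12 libraries at 0% oxygen lie above all 4 at 30% oxygen, and the lowest values at 0% oxygen are at 5 volume changes. Log2 fold changes against 30% oxygen were 3.74 ± 0.23, 3.78 ± 0.23 and 2.84 ± 0.22 (SE) at 0.4, 4 and 5 volume changes, with a largest adjusted p of 8.66e-09 (edgeR).

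On its outer side, the members at places 13 to 15 fell in all 3 comparisons with 30% oxygen. At 5 volume changes the log2 fold changes were -2.24 for PP7435_Chr4-1011.t01 (place 13), -1.64 for PP7435_Chr4-1010.t01 (place 14) and -0.80 for PP7435_Chr4-1009.t01 (place 15). On its inner side, PP7435_Chr4-2126.t01 (place 17), which shares reads with a feature outside the ends, was higher at 4 volume changes (1.04). PP7435_Chr4-1007.t01 (place 18) was higher at 0.4 (0.37) and at 4 volume changes (0.36). These 5 are named for their place around PP7435_Chr4-1008.t01. The outermost tested members were lower too, as PP7435_Chr4-1019.t01 (place 3) went from 183 ± 39.8 to 60.1 ± 6.26 TPM at 0.4 volume changes, a log2 fold change of -1.47. PP7435_Chr4-1018.t01 (place 4), which shares reads, went from 3.50, 4.38, 5.45 and 3.73 CPM to 0.431, 0.333, 0.515 and 0.122 CPM at 0.4 volume changes, with a log2 fold change of -3.58 ± 0.41 (SE, adjusted p = 9.52e-07, edgeR). The most abundant member per length, PP7435_Chr4-2148.t01 (153 nt, place 5), stood at 316 ± 65.4 TPM at 30% oxygen and was called in none of the comparisons.

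**Figure D4:**
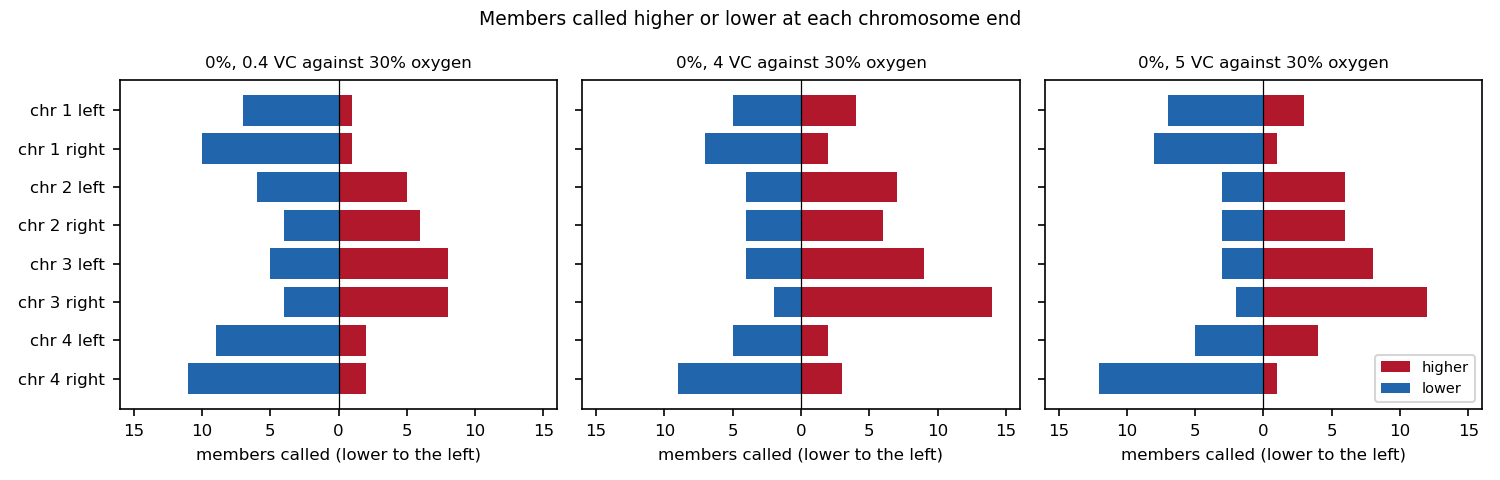
Number of members called higher (red, to the right) or lower (blue, to the left) than at 30% oxygen at each chromosome end, for 0.4, 4 and 5 volume changes of 0% oxygen. Chromosome 3 right has 14 higher and 2 lower at 4 volume changes, and chromosome 4 right has 1 higher and 12 lower at 5 volume changes.

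At the right end of chromosome 1 more of the members that could be tested fell than rose. Of 14 tested members, 10 were lower and 1 higher at 0.4 volume changes, 7 and 2 at 4, and 8 and 1 at 5 volume changes, with median log2 fold changes of -0.47, -0.43 and -0.51. Lower members made up 71.4%, 50.0% and 57.1% of those tested, against 24.0%, 25.4% and 22.5% of all features. Higher members made up 7.14%, 14.3% and 7.14%, against 23.8%, 24.6% and 23.3%. The 6 neighbours at places 15 to 20 were all lower at 0.4 volume changes. The member called higher in all 3 comparisons was PP7435_Chr1-1587.t01, which shares its reads with chromosomes 3 and 4. Its CPM was 0.897, 1.51, 1.72 and 1.15 at 30% oxygen and 9.04, 7.40, 4.37 and 9.01 at 5 volume changes, a log2 fold change of 2.51 ± 0.35 (SE, adjusted p = 1.23e-05, edgeR), at a level of only 1.79 ± 0.492 TPM.

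Several members of that end fell early and rose again. Places 16 to 18 were all called higher at 4 than at 0.4 volume changes, and the member at place 17 is described here. PP7435_Chr1-1578.t01 (618 nt, place 17) held 9.71, 8.13, 7.41 and 10.2 CPM at 30% oxygen and 5.12, 2.41, 4.61 and 4.43 CPM at 0.4 volume changes, then 10.7, 11.7, 9.07 and 10.7 at 4 and 7.97, 5.37, 7.58 and 7.73 CPM at 5 volume changes. The early group lies under the other 3 without overlap. Its log2 fold change was -1.10 ± 0.21 (SE, adjusted p = 2.50e-04) at 0.4 volume changes against 30% oxygen and 1.35 ± 0.21 (adjusted p = 6.24e-05) at 4 against 0.4 volume changes in edgeR's test. The most abundant member of the end, PP7435_Chr1-1584.t01 (366 nt, place 9), instead stood at 68.4 ± 2.94 TPM at 30% oxygen and at 47.01 ± 6.92, 44.7 ± 8.27 and 38.6 ± 6.51 TPM at 0.4, 4 and 5 volume changes. It was lower in all 3 comparisons, and its call at 0.4 volume changes (log2 -0.44 ± 0.14, SE) ended without replicate 2 of that group, where the value was -0.35.

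The left end of chromosome 1 held the largest fall of all members at 4 and 5 volume changes. PP7435_Chr1-0014.t01 (1164 nt, place 17) held 281, 299.7, 317 and 310.3 CPM at 30% oxygen and 122, 145, 134 and 134 CPM at 0.4 volume changes. It held 17.7, 8.83, 11.8 and 13.2 CPM at 4 and 11.6, 11.2, 11.2 and 11.5 CPM at 5 volume changes. The first 3 groups do not overlap, and the last 2 do. Against 30% oxygen the log2 fold change went from -1.17 ± 0.13 (SE) at 0.4 to -4.55 ± 0.15 at 4 and -4.73 ± 0.15 at 5 volume changes, with a largest adjusted p of 5.41e-07 (edgeR).

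Its 2 outer neighbours fell with it. PP7435_Chr1-1609.t01, a short feature of 180 nt at place 16, went from 387 ± 76.8 to 198 ± 22.4 TPM at 0.4 and 62.7 ± 19.9 TPM at 4 volume changes. PP7435_Chr1-0013.t01 (place 15) went from 72.7 ± 3.27 to 33.2 ± 2.13 and 23.01 ± 4.09 TPM. These 2 are named for their place, and places 15 to 17 were called lower in each of the 3 comparisons with 30% oxygen and at 5 against 0.4 volume changes.

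Elsewhere at that end, PP7435_Chr1-0008.t01 (597 nt, place 10) had its lowest level early. It held 161, 255, 248 and 233 CPM at 30% oxygen, 31.98, 32.5, 31.5 and 35.5 at 0.4, 63.7, 86.96, 59.9 and 51.9 at 4 and 78.2, 71.6, 58.8 and 76.4 CPM at 5 volume changes. The log2 fold changes were -2.77 ± 0.16, -1.77 ± 0.16 and -1.65 ± 0.15 (SE), with a largest adjusted p of 8.34e-08 (edgeR), and 30% oxygen overlaps none of the other groups. Counted over the end, 1 member was higher and 7 lower at 0.4 volume changes, 4 and 5 at 4, and 3 and 7 at 5 volume changes, of 19 tested. Higher members were 5.26%, 21.1% and 15.8% of these, and lower members 36.8%, 26.3% and 36.8%. Over all features 23.8%, 24.6% and 23.3% were higher and 24.0%, 25.4% and 22.5% lower. The median log2 fold changes of the end were -0.41, -0.07 and -0.12. Pooled over both directions, the shares called, 42.1%, 47.4% and 52.6%, were near those of all features (47.8%, 50.0% and 45.9%). The outermost member, PP7435_Chr1-0001.t01 (1482 nt), stood at 0.102 ± 0.145 TPM at 30% oxygen and was called in none of the comparisons. The most abundant was PP7435_Chr1-0005.t01, at 663 ± 115 TPM at 30% oxygen and 569 ± 54.4, 700.0 ± 107 and 540.2 ± 104 TPM at 0.4, 4 and 5 volume changes.

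The left end of chromosome 4 held the largest fall of all members at 0.4 volume changes. PP7435_Chr4-1037.t01 (537 nt, place 2) held 93.6, 99.4, 101 and 91.5 CPM at 30% oxygen and 3.69, 2.69, 3.95 and 6.29 CPM at 0.4 volume changes. It held 8.76, 6.23, 6.29 and 6.17 CPM at 4 and 5.10, 4.19, 3.84 and 6.29 CPM at 5 volume changes. The highest library at 0% oxygen stood at 8.76 CPM and the lowest at 30% oxygen at 91.5 CPM. The log2 fold changes were -4.54 ± 0.22, -3.81 ± 0.21 and -4.30 ± 0.22 (SE), with a largest adjusted p of 6.68e-11 (edgeR).

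The next member inward, PP7435_Chr4-0002.t01 (place 3), fell as well. It held 352, 412, 401 and 419 CPM at 30% oxygen, 68.1, 69.5, 70.1 and 67.97 at 0.4, 69.8, 77.97, 93.4 and 89.3 at 4 and 70.4, 80.3, 82.9 and 61.7 CPM at 5 volume changes. None of the libraries at 0% oxygen overlaps those at 30% oxygen, and the log2 fold changes were -2.52 ± 0.11, -2.26 ± 0.11 and -2.42 ± 0.11 (SE, largest adjusted p = 5.93e-12, edgeR). Both members have whole counts in every library, although they lie inside the block whose other members have copies.

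Over that end, 2 members were higher and 9 lower at 0.4 volume changes, with places 2 to 5 all lower. At 4 volume changes the split was 2 and 5, and at 5 volume changes 4 and 5. Higher members were 10%, 10% and 20% of the end, against 23.8%, 24.6% and 23.3% of all features. Lower members were 45%, 25% and 25%, against 24.0%, 25.4% and 22.5%. In total 55.0%, 35.0% and 45.0% were called, against 47.8%, 50.0% and 45.9% of all features. Its median log2 fold changes were -0.21, -0.01 and -0.04, of which the last 2 turned to 0.04 and 0.03 with upper-quartile scaling. The outermost member, PP7435_Chr4-0001.t01, stood at 32.5 ± 7.24, 31.9 ± 5.13, 40.9 ± 3.26 and 44.4 ± 5.16 TPM in the 4 groups. It was called at 5 volume changes only (log2 0.52 ± 0.18, SE, adjusted p = 0.0242, edgeR), a call that ended without replicate 1 at 30% oxygen (0.36) or without replicate 2 (0.46) or 4 (0.48) at 5 volume changes. The most abundant of all members by the mean over 16 libraries was PP7435_Chr4-0013.t01 (336 nt, place 16), at 1443 ± 147 TPM at 30% oxygen and 1671 ± 192, 1509.5 ± 403 and 1653 ± 203 TPM at 0.4, 4 and 5 volume changes, and it was called in none of the comparisons.

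At the left end of chromosome 2, neighbours at places 14 to 16 took 3 different courses. PP7435_Chr2-0015.t01 (840 nt, place 14) fell, from 626, 588, 1118 and 638 CPM at 30% oxygen to 323, 271, 334 and 307 CPM at 0.4, 144, 444, 214 and 147 at 4 and 230.1, 305, 188 and 301 CPM at 5 volume changes. Its log2 fold changes were -1.27 ± 0.30, -1.65 ± 0.30 and -1.54 ± 0.30 (SE, largest adjusted p = 0.00192, edgeR), and no library at 0% oxygen reached the lowest at 30% oxygen. PP7435_Chr2-0016.t01 (1302 nt, place 15) rose and stayed high.

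The 4 libraries of PP7435_Chr2-0016.t01 at 30% oxygen held 116, 132, 131 and 124 CPM, against 497, 515, 482 and 464 at 0.4, 379.9, 396, 399 and 428 at 4 and 313, 512, 428 and 339 CPM at 5 volume changes. All 12 libraries at 0% oxygen lie above those at 30% oxygen. The log2 fold changes were 1.96 ± 0.12, 1.67 ± 0.12 and 1.66 ± 0.12 (SE, largest adjusted p = 2.71e-09, edgeR).

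PP7435_Chr2-0017.t01 (2214 nt, place 16) rose early only. It held 177, 181, 181 and 169 CPM at 30% oxygen, 846, 912, 957 and 939 at 0.4, 145, 149, 124 and 156 at 4 and 134, 137, 149.7 and 200.2 CPM at 5 volume changes. The early group stands apart from the other 3. Its log2 fold change was 2.37 ± 0.12 (SE, adjusted p = 8.53e-12) at 0.4 volume changes against 30% oxygen and -2.67 ± 0.12 (adjusted p = 1.29e-11) at 4 against 0.4 volume changes in edgeR's test. At 4 volume changes it was called lower than at 30% oxygen, with -0.30 ± 0.11 (SE, adjusted p = 0.0304), a call kept in 12 of 16 fits that each left out 1 library (it ended without replicate 2 or 3 at 30% oxygen or replicate 1 or 3 at 4 volume changes, values -0.29, -0.30, -0.31 and -0.24).

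Over the left end of chromosome 2, 5 members were higher and 6 lower at 0.4 volume changes, 7 and 4 at 4, and 6 and 3 at 5 volume changes. These are 55.0%, 55.0% and 45.0% called, near the 47.8%, 50.0% and 45.9% of all features. Higher members were 25%, 35% and 30% of this end, against 23.8%, 24.6% and 23.3% of all features. Lower members were 30%, 20% and 15%, against 24.0%, 25.4% and 22.5%. Its outermost member, PP7435_Chr2-0001.t01 (1524 nt), was among the least abundant, at 0.106 ± 0.0996 TPM at 30% oxygen and 0.647 ± 0.513 TPM at 4 volume changes. It held 0.241, 0.484, 0.134 and 0 CPM at 30% oxygen, 0.324, 0.179, 0.0286 and 0.0305 at 0.4, 2.69, 0.765, 0.601 and 1.16 at 4 and 0.664, 1.26, 1.02 and 0.529 CPM at 5 volume changes. The later groups lie above the others without overlap, and the log2 fold change at 4 volume changes against 30% oxygen was 2.62 ± 0.71 (SE, adjusted p = 0.00505, edgeR). That value ran from 1.98 without replicate 1 at 4 volume changes to 3.30 without replicate 2 at 30% oxygen, and on log2(TPM + 1), which compresses so low a level, it was 0.53 and no longer called.

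The right end of chromosome 2 showed no prevailing direction, with 6 higher and 4 lower at 0.4 and at 4 volume changes and 6 and 3 at 5, of 20 tested. The shares called, 50.0%, 50.0% and 45.0%, were near the background of 47.8%, 50.0% and 45.9%. Higher members were 30% of this end each time, against 23.8%, 24.6% and 23.3% of all features. Lower members were 20%, 20% and 15%, against 24.0%, 25.4% and 22.5%. PP7435_Chr2-1289.t01 (687 nt, place 11) rose most. It held 18.3, 16.98, 30.6 and 16.3 CPM at 30% oxygen, 113, 94.4, 128 and 101 at 0.4, 100.4, 205, 132 and 95.95 at 4 and 114, 169, 124 and 136 CPM at 5 volume changes. All libraries at 0% oxygen lie above those at 30% oxygen, with log2 fold changes of 2.41 ± 0.24, 2.70 ± 0.24 and 2.72 ± 0.24 (SE, largest adjusted p = 1.35e-07, edgeR).

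In the opposite direction at that end, PP7435_Chr2-1294.t01 (1353 nt, place 5) went from 101, 119.6, 138 and 116 CPM to 42.5, 41.8, 36.6 and 37.6 at 0.4, 39.5, 64.01, 43.8 and 35.2 at 4 and 37.8, 51.3, 32.3 and 41.1 CPM at 5 volume changes. The groups at 0% oxygen overlap each other and lie under 30% oxygen, with log2 fold changes of -1.58 ± 0.17, -1.38 ± 0.17 and -1.55 ± 0.17 (SE, largest adjusted p = 2.49e-06, edgeR). The outermost member, PP7435_Chr2-2705.t01 (780 nt), stood near the general median, at 43.8 ± 10.03 TPM at 30% oxygen and 64.8 ± 2.63 TPM at 4 volume changes, where it was higher (log2 0.58 ± 0.16, SE, adjusted p = 0.00684). PP7435_Chr2-1286.t01 (732 nt, place 14), the most abundant of the end, stood at 1358 ± 129, 1502 ± 73.00, 1491 ± 112 and 1515 ± 58.9 TPM in the 4 groups and was called in none of the comparisons.

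The left end of chromosome 3, the end with the highest median level, held more members that rose than fell in the main edgeR fit. Called higher were 8 members at 0.4, 9 at 4 and 8 at 5 volume changes (40%, 45% and 40%, against 23.8%, 24.6% and 23.3% of all features). Called lower were 5, 4 and 3 (25%, 20% and 15%, against 24.0%, 25.4% and 22.5%). In total 65.0%, 65.0% and 55.0% were called, against 47.8%, 50.0% and 45.9% of all features, with median log2 fold changes of 0.19, 0.18 and 0.05. With limma on log2(TPM + 1) the last turned to -0.01, and the medians of both ends of chromosome 2 at 0.4 volume changes, 0.10 and 0.12, turned to -0.04 and -0.02. In that setting the calls of chromosome 3 left were 2 higher and 5 lower at 0.4 volume changes, against 747 and 1630 over all features. They were 7 and 4 at 4 and 5 and 3 at 5 volume changes. The largest change against 30% oxygen was a fall: PP7435_Chr3-0016.t01 (1332 nt, place 19) held 212, 286, 259 and 327 CPM at 30% oxygen, 68.5, 48.9, 63.7 and 56.5 at 0.4, 68.2, 63.3, 74.8 and 64.7 at 4 and 71.7, 54.4, 64.2 and 59.4 CPM at 5 volume changes. Its groups at 0% oxygen overlap each other but not 30% oxygen, and the log2 fold changes were -2.19 ± 0.13, -1.999 ± 0.13 and -2.12 ± 0.13 (SE, largest adjusted p = 5.08e-10, edgeR). The most abundant member, PP7435_Chr3-0008.t01 (402 nt, place 11), stood at 665 ± 27.2 TPM at 30% oxygen and 771 ± 112, 774 ± 108 and 715 ± 57.7 TPM in the later groups.

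Its outermost member, PP7435_Chr3-0001.t01 (1503 nt), fell early and rose late. It held 11.2, 13.3, 10.9 and 10.1 CPM at 30% oxygen, 5.29, 3.26, 4.29 and 5.62 at 0.4, 24.2, 44.7, 23.7 and 14.2 at 4 and 24.5, 54.6, 24.2 and 28.3 CPM at 5 volume changes. The early group lies under all other libraries, both later groups lie above all at 30% oxygen, and replicate 2 is the highest library of each later group. The log2 fold changes against 30% oxygen were -1.30 ± 0.31, 1.23 ± 0.30 and 1.53 ± 0.30 (SE), with adjusted p = 0.00225, 0.0026 and 4.95e-04 (edgeR).

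**Figure D5:**
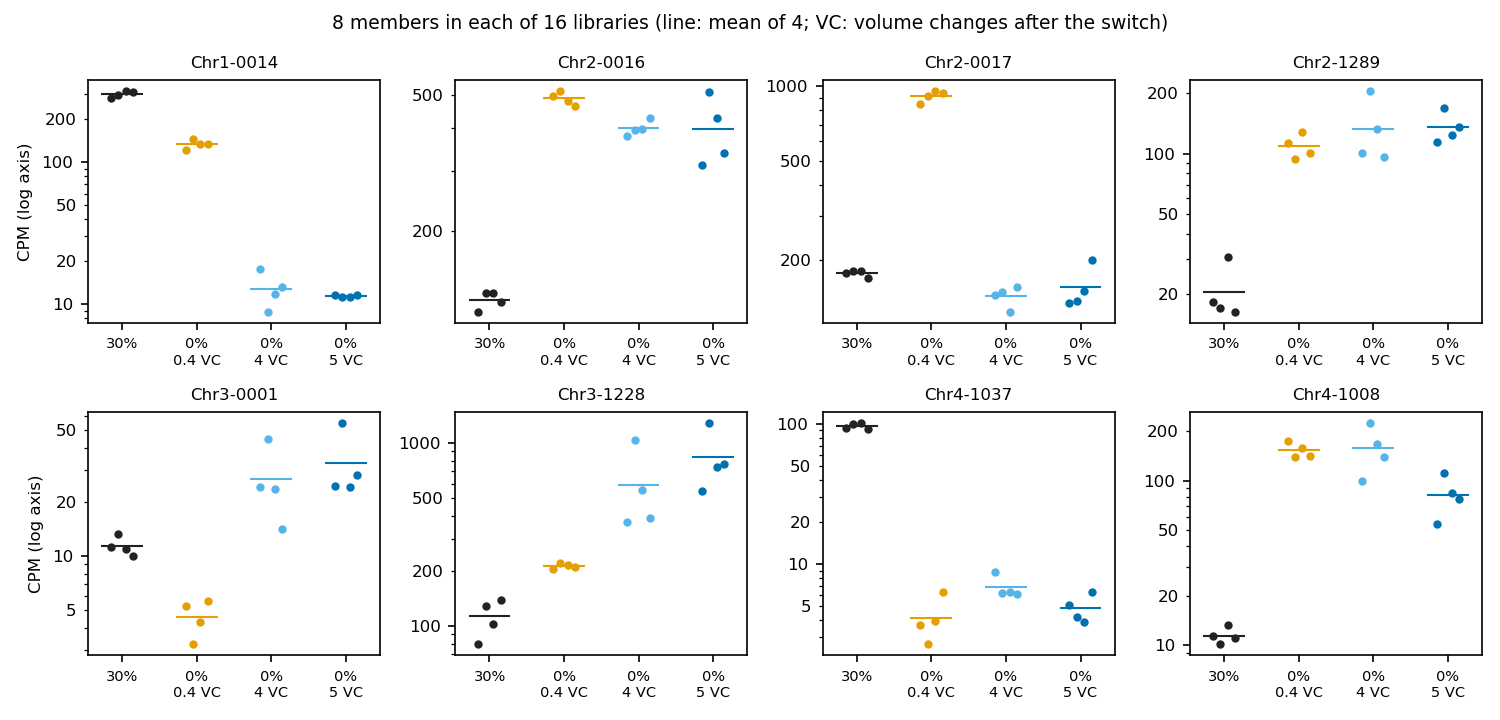
CPM (log axis) of 8 members in each of the 16 libraries, by group; points are libraries in the order of replicates and lines are means of 4. PP7435_Chr1-0014.t01 and PP7435_Chr4-1037.t01 fall from means of 302 ± 15.7 and 96.4 ± 4.62 CPM at 30% oxygen, PP7435_Chr2-0017.t01 is high at 0.4 volume changes only, and PP7435_Chr4-1008.t01 and PP7435_Chr3-1228.t01 are higher in every library at 0% oxygen than at 30% oxygen.

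From 0.4 to 4 volume changes at 0% oxygen, more members rose than fell. At 4 against 0.4 volume changes 56 of 152 members were called (36.8%, against 34.8% of all features), 40 higher and 16 lower, where the background shares were 16.8% and 18.0%. Changes of at least 2-fold were called in 15 members higher and 4 lower, with background shares of 2.33% and 2.53%. At the right end of chromosome 3, 9 members were higher and 0 lower, with 6 higher and 1 lower at the left end of chromosome 4 and 6 and 3 at the left end of chromosome 2. Chromosome 1 left had 6 and 4, chromosome 1 right 5 and 2, chromosome 3 left 3 and 2 and chromosome 2 right 2 and 0. At chromosome 4 right 3 were higher and 4 lower. The shares called ran from 10% at chromosome 2 right to 52.6% at chromosome 1 left. The 5 outermost members of chromosome 2 left were all higher at 4 than at 0.4 volume changes, led by PP7435_Chr2-0001.t01 with 3.15 ± 0.75 (SE) on the log2 scale (adjusted p = 0.00315, edgeR).

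At 5 against 0.4 volume changes 52 members were called (34.2%, against 28.7%), 25 higher and 27 lower, with background shares of 13.7% and 15.1%. This split depended on scaling: with upper-quartile factors it was 31 higher and 20 lower, a share of 60.8% higher in place of 48.1%, and with limma on log2(TPM + 1), where the test changes too, it was 28 and 16 (63.6%). Over all features the split moved as well, from 745 higher and 822 lower to 931 and 679 with upper-quartile factors. With limma on log2(TPM + 1) it was 772 and 521 over all features. In the main edgeR fit, chromosome 3 right again had 7 higher and 0 lower, while chromosome 4 right had 0 higher and 7 lower. Changes of at least 2-fold were called in 11 members higher and 4 lower, with background shares of 2.0% and 1.78%. The comparisons with 0.4 volume changes share that group's libraries.

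Between 4 and 5 volume changes 1 of 152 members was called (0.658%, against 0.642% of all features), and 23 (15.1%) had an unadjusted p under 0.05, against 12.3% of all features. The called member, PP7435_Chr4-1008.t01, was lower at 5 volume changes, with a log2 fold change of -0.94 ± 0.21 (SE, adjusted p = 0.0424, edgeR), although the groups overlap. The call was kept in 3 of the 16 fits that each left out 1 library, those without replicate 1 at 30% oxygen, replicate 1 at 4 or replicate 2 at 5 volume changes. Over the 16 fits the value ran from -1.12 to -0.72, the last without replicate 2 at 4 volume changes. The number of members called was 3 with RLE or upper-quartile factors and 6 with DESeq2. Over all features it was 39 with RLE factors, 43 with upper-quartile factors and 113 with DESeq2, in place of 35.

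A course that crossed the level at 30% oxygen was found in 6 members, called in opposite directions at 0.4 and at 4 volume changes (3.95% of those tested, against 2.04% of all features). Of these, PP7435_Chr2-0017.t01 was higher early and lower later, as given above. The other 5 were lower early and higher at 4 volume changes: PP7435_Chr3-0001.t01, PP7435_Chr3-1236.t01, PP7435_Chr3-1222.t01, PP7435_Chr1-1585.t01 and PP7435_Chr2-0003.t01. Of these, PP7435_Chr3-1236.t01 shares reads within the set that joins 3 chromosomes. It held 15.9, 22.9, 23.6 and 19.7 CPM at 30% oxygen and 33.5, 46.2, 21.3 and 28.9 CPM at 4 volume changes. Those groups overlap. PP7435_Chr3-1222.t01 (1353 nt, place 16 of chromosome 3 right) held 1.64, 3.54, 1.66 and 1.89 CPM at 30% oxygen, 0.89, 1.33, 0.715 and 0.61 at 0.4, 5.26, 3.06, 4.41 and 3.66 at 4 and 3.94, 4.64, 5.47 and 2.67 CPM at 5 volume changes. Its early group lies under all libraries at 30% oxygen, but both later groups overlap 30% oxygen through replicate 2 of that group.

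The log2 fold change of PP7435_Chr3-1222.t01 was -1.28 ± 0.33 (SE, adjusted p = 0.00407) at 0.4 and 0.92 ± 0.31 (adjusted p = 0.0191) at 4 volume changes in edgeR's test. The second call was kept in 12 of 16 fits without 1 library and ended without replicate 1, 3 or 4 at 30% oxygen (0.80, 0.81 and 0.86) or replicate 1 at 4 volume changes (0.78). PP7435_Chr1-1585.t01 (place 8 of chromosome 1 right) and PP7435_Chr2-0003.t01 (place 3 of chromosome 2 left) changed by -0.72 and -0.72 at 0.4 and by 0.38 and 0.37 at 4 volume changes. Both share reads, PP7435_Chr1-1585.t01 with PP7435_Chr1-0001.t01 and PP7435_Chr2-0003.t01 with a feature outside the ends. The sum of the first pair was 20.2 ± 0.544 CPM at 30% oxygen, 12.4 ± 1.495 at 0.4 and 26.2 ± 3.21 at 4 volume changes. The sum of the second pair was 197 ± 13.2, 189.8 ± 14.2 and 216 ± 9.52 CPM. Most of it came from the feature outside the ends, as PP7435_Chr2-0003.t01 held 33.8 to 42.1 CPM at 30% oxygen. The sum therefore cannot show how far the value of PP7435_Chr2-0003.t01 depends on the split of reads. A non-whole count occurred in 4 libraries of this pair. Without 1 library, the calls at 4 volume changes were kept in 16 of 16 fits for PP7435_Chr1-1585.t01, 11 for PP7435_Chr2-0003.t01 and 12 for PP7435_Chr3-1236.t01. The levels of PP7435_Chr1-1585.t01 and PP7435_Chr2-0003.t01 were 9.55 ± 0.299 and 12.1 ± 0.904 TPM at 30% oxygen.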

How the data were processed

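RNA from 16 chemostat samples was depleted of ribosomal RNA and made into directional libraries, per the labels' protocols. The authors deposited 1 abundance table per sample, with an estimated count and a TPM for each of 5564 features, per the file headers. An estimated count is a whole or divided number of reads assigned by the authors' quantification, and the TPM values were also deposited by the authors, scaled by effective length and library total. The submitters' processing notes name kallisto 0.44.0, Bowtie2 2.3.4.1, cutadapt 1.18, DESeq2 1.36.0, SAMtools 1.9 and R 4.2.0, without their roles. No source used here gives the genome build, annotation or strand setting.

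Estimated counts were rounded to whole numbers. Features were kept by filterByExpr, which left 5452, and all 16 libraries were fitted together with edgeR 4.0.16 (TMM factors, quasi-likelihood F test, R 4.3.3). Benjamini-Hochberg adjustment ran over all features tested and a call needs an adjusted p under 0.05. SE is the absolute log2 fold change divided by the square root of F. DESeq2 1.42.0 and limma 3.58.1 on log2(TPM + 1) served as alternatives, as did other scaling factors, filters, end sizes, a replicate block and leaving out each library. The alternative restricted to members with whole counts was chosen after seeing the data. On simulated counts for 5452 features, the comparison of 0.4 volume changes with 30% oxygen recovered 8% of features changed 1.25-fold, 68% at 1.5-fold and 100% at 2-fold and 4-fold, and called 0.114% of unchanged features. The simulation changed 50 features at each fold, left 5252 unchanged and gave all features the same spread. In the data 47.8% of features were called in that comparison and spreads differ between features, so these rates need not hold there.

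The labels call all samples biological replicates and do not say whether replicates of a group came from separate cultures, so p-values measure the spread between these samples. Members and lists were chosen with earlier results of these data known. Members described in full are the outermost and the most abundant of each end and those with the largest called changes, and others are named for their place or after their values were seen. Limits from a count of 0 use 3 counts and cover counting error only. One coding feature at the left end of chromosome 1 is not reported here.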

Additional observations from a re-analysis of the deposited data

Results flagged for a closer look

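In 12 of 124 groups of 4 examined, 1 library stood far from the other 3 by Dixon's 95% limit, where chance alone gives about 1 in 20, or 6.2. Replicate 2 at 30% oxygen was high for PP7435_Chr1-0001.t01, with 0.635 CPM against 0.0269 to 0.105, for PP7435_Chr3-1219.t01, with 58.1 CPM against 46.5 to 47.4, and for PP7435_Chr3-1222.t01, with 3.54 CPM against 1.64 to 1.89. Replicate 3 at 30% oxygen was high for PP7435_Chr2-0015.t01, with 1118 CPM against 588 to 638, and for PP7435_Chr2-1289.t01, with 30.6 CPM against 16.3 to 18.3. Replicate 1 at 4 volume changes was high for PP7435_Chr4-1037.t01, with 8.76 CPM against 6.17 to 6.29. Replicate 2 at 5 volume changes was high for PP7435_Chr3-0001.t01, with 54.6 CPM against 24.2 to 28.3, and low for PP7435_Chr1-1578.t01, with 5.37 CPM against 7.58 to 7.97. PP7435_Chr1-1624.t01 and PP7435_Chr4-1026.t01, which carry the same counts, each stood apart in replicate 4 at 4 volume changes (0.188 CPM) and in replicate 2 at 5 volume changes (0.676 CPM), where the other libraries of those groups held 0. Any value beside libraries that all hold 0 passes the limit, and these 2 features repeat each other. The 12 can therefore not be read as an excess over 6.2.

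The change against 30% oxygen differed between time points for 12 of the members described in full, by the direct comparison of the groups at 0% oxygen in edgeR's fit. At 4 and 5 against 0.4 volume changes the log2 differences were -3.38 and -3.56 for PP7435_Chr1-0014.t01 and -2.67 and -2.56 for PP7435_Chr2-0017.t01. They were positive for PP7435_Chr1-0008.t01 (1.00 and 1.12), PP7435_Chr1-1587.t01 (0.93 and 1.12), PP7435_Chr1-1578.t01 (1.35 and 0.80), PP7435_Chr2-0001.t01 (3.15 and 2.53) and PP7435_Chr3-0001.t01 (2.53 and 2.83). PP7435_Chr3-1228.t01 (1.47 and 1.98) and PP7435_Chr3-1222.t01 (2.20 and 2.22) were higher as well. At 4 against 0.4 volume changes only, PP7435_Chr3-1237.t01 differed by 1.04 and PP7435_Chr4-1037.t01 by 0.73. PP7435_Chr4-1008.t01 differed by -0.90 at 5 against 0.4 and by -0.94 at 5 against 4 volume changes.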

How the results depend on the processing

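No called change of a described member turned into a call in the opposite direction under any alternative that was run. Uncalled values near 0 could turn. The direction of PP7435_Chr1-0001.t01 at 0.4 volume changes against 30% oxygen rested on single libraries. These were replicate 2 at 30% oxygen (0.635 CPM) and replicate 3 at 0.4 volume changes (0.458 CPM). Some end medians close to 0 changed direction under other scalings (given in the report). At 4 volume changes against 30% oxygen, the medians of the left ends of chromosomes 1 and 4 reached 0.03 and 0.01 without 1 library. Counts of members called stayed within 1.5 times for every comparison except 5 against 4 volume changes, where the 1 call became 3 with RLE or upper-quartile factors, 6 with DESeq2, 2 with limma on log2(TPM + 1) or the other TPM pseudocount, 2 with a mean count of at least 50, and 0 when only those 2 groups were fitted. Over all features that comparison gave 35 calls in the main fit, 39 with RLE factors, 43 with upper-quartile factors and 113 with DESeq2. It gave 11 with either TPM setting, 36 with a mean count of at least 50 and 0 when only those 2 groups were fitted. The share called in that comparison was 0 with 10 members per end and 0.321% with 40. Leaving out 1 library at a time gave 82 to 98 calls at 0.4, 79 to 88 at 4 and 70 to 87 at 5 volume changes against 30% oxygen, 49 to 60 at 4 and 44 to 60 at 5 against 0.4, 0 to 3 at 5 against 4, and 101 to 117 in the joint test. Replicate numbers showed no steady pairing: 9 of 24 same-numbered pairs correlated above 0.1 in their deviations (range -0.447 to 0.425), and 1 library of 16 correlated best with its own number in all 3 other groups. Between 4 and 5 volume changes the same-numbered pairs stood at 0.407, 0.180, 0.425 and -0.201 for replicates 1 to 4. With 4 libraries per group, these values cannot decide whether same-numbered libraries came from the same culture. A replicate block gave 91, 89, 82, 56, 57 and 2 calls in the 6 comparisons.

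Level ratios depended on how many features make an end and on the unit. With 10 per end they were 0.0130 (chromosome 1 right), 0.530 (2 left), 1.09 (2 right), 2.04 (3 left), 1.38 (4 left) and 1.71 (4 right). With 40 they were 0.752 (1 left), 0.552 (1 right), 1.09 (2 right), 0.651 (3 right) and 0.731 (4 right). With CPM per kilobase of annotated length they were 0.506 (1 left), 0.250 (1 right), 1.03 (2 right), 1.30 (3 left) and 0.729 (4 right). Ordered by identifier number in place of row order, the ends kept 74 of the 159 members. Over the values of the described members, 4190 kept their status as called or not called, 87 lost the call and 56 gained it. Of the members, 7 did not pass the low-count filter, and whether more depth would bring them past it was not tested.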
